A study of Mus musculus with 151 samples.

Results

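The glycine cleavage system and the enzymes and transporter that feed it were followed through the germ cells, cumulus cells and ovaries of female mice conceived by in vitro fertilization (IVF) or naturally (Natural). The 7 genes, of 35949 present in all 7 count tables, were taken by name: Gcsh, Gldc, Amt and Dld, which encode the proteins of the complex, Shmt1 and Shmt2, which encode the serine hydroxymethyltransferases, and Slc6a9, which encodes the glycine transporter GlyT1. Gcsh was picked because it was lower in IVF cumulus cells, so its values there are given as a description and were not tested.

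The glycine cleavage system is a mitochondrial complex that breaks glycine down to carbon dioxide and ammonia and passes the remaining carbon to tetrahydrofolate, where it enters nucleotide and methyl group synthesis. The P protein (Gldc) decarboxylates glycine and hands the rest of the molecule to the lipoyl arm of the H protein (Gcsh), the T protein (Amt) releases ammonia and transfers the carbon to folate, and the L protein (Dld), which also serves the pyruvate and oxoglutarate dehydrogenases, reoxidizes the lipoyl group. Shmt2 in mitochondria and Shmt1 in the cytosol interconvert serine and glycine, the H protein also takes part in handing lipoate to other enzymes, and oocytes and early embryos take up glycine through GlyT1 as an osmolyte.

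In the mm10 assembly (GRCm38.p6, RefSeq) Gcsh spans chr8:116981967-116993498 on the minus strand, with 5 exons, and Gldc spans chr19:30098441-30175441 on the minus strand, with 25 exons. Amt lies at chr9:108296905-108302302 (plus, 9 exons), Dld at chr12:31331562-31351471 (minus, 14 exons), Shmt1 at chr11:60788897-60811265 (minus, 12 exons), Shmt2 at chr10:127517123-127522444 (minus, 12 exons) and Slc6a9 at chr4:117835258-117869305 (plus, 14 exons). The counting strand is not given in the sources used here, and Shmt2 overlaps Ndufa4l2, Slc6a9 overlaps Ccdc24 and Gldc overlaps Rpl31-ps20, so reads from the overlapping stretches cannot be told apart. The 250 bases before the start of Gcsh and of Gldc are shown because these genes, whose proteins meet in the first step of the reaction, had the most unlike levels in cumulus cells. They read 5′ to 3′ on the coding strand, at chr8:116993499-116993748 for Gcsh and chr19:30175442-30175691 for Gldc, and capitals mark CCAAT or GGGCGG on either strand.
Gcsh promoter: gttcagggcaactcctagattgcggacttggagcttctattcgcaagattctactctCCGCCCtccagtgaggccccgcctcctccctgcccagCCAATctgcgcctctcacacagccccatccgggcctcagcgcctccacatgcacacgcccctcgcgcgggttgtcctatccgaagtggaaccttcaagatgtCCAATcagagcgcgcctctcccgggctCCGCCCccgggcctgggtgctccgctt
Gldc promoter: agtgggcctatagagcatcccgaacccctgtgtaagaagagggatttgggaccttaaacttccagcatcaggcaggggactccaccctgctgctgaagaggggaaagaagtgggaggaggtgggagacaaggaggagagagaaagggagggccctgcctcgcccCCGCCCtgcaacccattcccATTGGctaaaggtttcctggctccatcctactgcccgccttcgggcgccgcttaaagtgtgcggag
The Gcsh window held 2 CCAAT and 2 GGGCGG matches, 18 CpG dinucleotides and 64.4% G or C, and the Gldc window held 1 of each motif, 8 CpG dinucleotides and 59.6% G or C. Of 32851 windows of this kind, 33.8% held CCAAT, 32.7% held GGGCGG, and the median was 6 CpG dinucleotides. These matches describe the letters only.

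All animals were offspring of CF-1 females and B6/SJL males. Natural offspring were conceived in vivo, and IVF offspring came from eggs of superovulated females, were cultured to the blastocyst stage in KSOM medium and were transferred to pseudopregnant females. The adult cohorts of both groups were delivered by cesarean section and fostered to CF-1 dams, and adults giving oocytes and cumulus cells, the somatic cells around the ovulated oocyte, had themselves been superovulated with eCG and hCG. Libraries were available from embryonic day (E) 13.5 primordial germ cells (PGCs) in pools of 100 cells (4 Natural, 5 IVF), from whole ovaries at E18.5 (4 and 6), 12 weeks (4 and 5) and 39 weeks (5 and 5), from single oocytes at 12 weeks (36 and 40) and 39 weeks (9 and 10), and from cumulus cells at 12 weeks (5 and 5). In one place the methods give E18.5 for Natural and E19.5 for IVF cesarean sections. A figure legend also gives a later day for IVF than for Natural pups of the adult cohorts. Other places and the labels give E18.5 for both fetal groups, and whether the day differed was not tested. One 39-week Natural ovary library carries both 39 and 40 weeks in its labels and was kept. Ovaries came from separate animals, whereas the animals behind the other libraries are not named, and p-values for those measure only the spread between the samples given.

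Depth ranged from 2839022 to 43363799 counts in ovary libraries, from 4364495 to 8675189 in PGC pools, from 839781 to 31126357 in single oocytes and from 2532824 to 6345249 in cumulus libraries. Levels are CPM, counts scaled to the same library total, means are given ± SD over libraries, and log2 fold changes (IVF over Natural, edgeR quasi-likelihood fit) are given ± standard error with p-values adjusted by Benjamini-Hochberg over all genes tested and called at 0.05. The 12-week oocytes were summed into 5 Natural and 5 IVF sets by the first fields of the library name. These are called donor sets here, although no label says that the fields name a donor. The name of Natural cumulus library 5 shares its fields with IVF oocytes, and fold changes of the 7 genes and counts of related genes that rest on it are given with and without it. Germ cell markers summed to 3176 to 6559 CPM in PGC pools against at most 16.7 CPM for granulosa and cumulus markers, and oocyte markers summed to at most 41.1 CPM in cumulus libraries. Genes of other lists also had counts. In PGC pools endothelial markers summed to 92.9 to 404 CPM, with 2 of 5 genes at a mean of at least 1 CPM in each group. Oviduct epithelium markers summed to 305 to 507 CPM there, with 6 of 7 such genes in Natural and 5 of 7 in IVF pools. In single 39-week oocytes erythroid markers reached 18370 CPM in Natural and 27005 CPM in IVF. Which cells these counts came from was not tested.

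Gcsh was highest in cumulus cells and lowest in ovulated oocytes. In Natural cumulus cells it stood at 653, 619.7, 661, 579 and 470.1 CPM in the 5 libraries (596 ± 77.7, n = 5). In Natural PGC pools it stood at 176, 82.5, 264 and 182 CPM (176 ± 74.3, n = 4). Every cumulus library lay above every PGC pool. Natural ovaries followed with 82.4 ± 17.9 CPM at 39 weeks (n = 5), 80.9 ± 21.9 CPM at 12 weeks (n = 4) and 30.3 ± 3.58 CPM at E18.5 (n = 4). Neither the adult ages nor the PGC and 39-week ovary ranges were apart, but E18.5 lay below both adult ages. The 12-week Natural oocyte sets held 6.61, 5.21, 5.61, 5.22 and 8.79 CPM (6.29 ± 1.51, n = 5), and the 9 Natural oocytes at 39 weeks ran from 0 to 28.6 CPM with a median of 1.96 CPM.

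**Figure D1:**
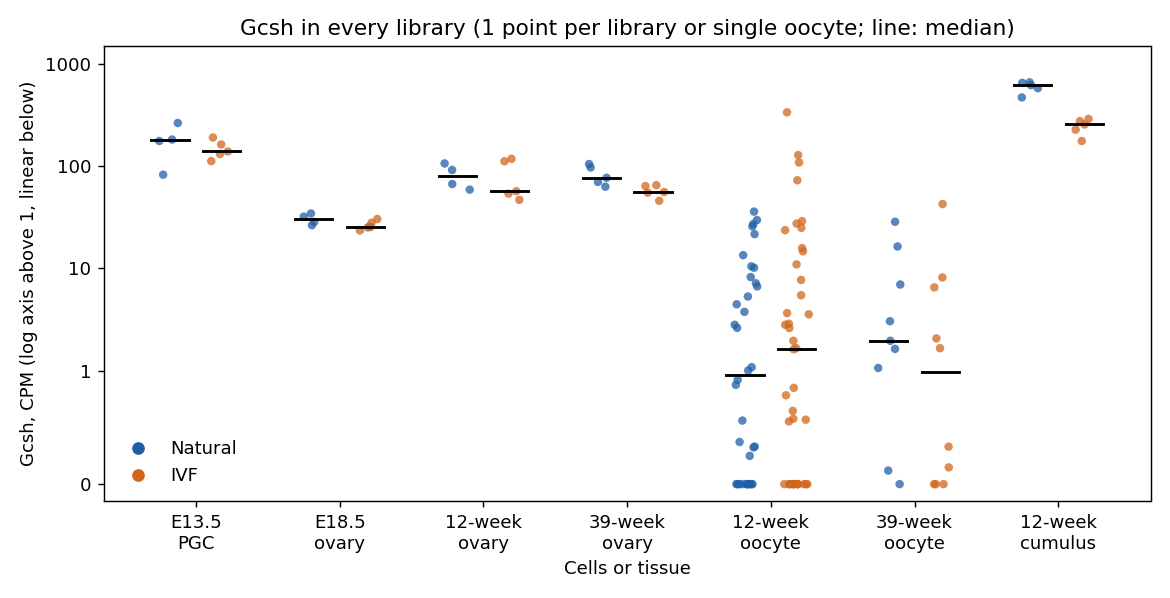
Gcsh level (CPM, log axis above 1 and linear below) in each library or single oocyte of the 7 tables, Natural beside IVF, with a line at each group's median. Cumulus libraries are highest (470.1 to 661 CPM in Natural and 176 to 290.0 CPM in IVF), and the groups are apart there but overlap in the other tables.

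The partners of the H protein did not share this distribution. Gldc, the P protein, had its highest level in PGCs: it stood at 75.8, 80.8, 98.2 and 131 CPM in the 4 PGC pools (96.4 ± 24.9), 0.539 to 4.05 CPM in E18.5 ovaries and at most 0.535 CPM in adult Natural ovaries. In cumulus cells Gldc was counted in 1 of 5 Natural libraries (12 of 25096285 counts over the group) and in 1 of 5 IVF libraries (2 of 22543945 counts), so a difference between the groups could not be detected at this depth. Amt, the T protein, also had its highest Natural level in PGC pools at 116, 45.8, 207 and 189 CPM, and was at 12.3 to 26.6 CPM in E18.5 ovaries, 1.79 to 8.69 CPM in cumulus cells and close to 0 in oocytes, with 16 counts over all 36 Natural oocytes at 12 weeks, 4 of which held any. The PGC pools lay above all other Natural samples for Gldc, for Amt and for Shmt1, which stood at 148, 63.5, 229 and 239 CPM there and at no more than 39.8 CPM anywhere else in Natural animals. Dld, the L protein, was present throughout, from 130.5 ± 11.9 CPM in 12-week Natural ovaries (n = 4) to a mean of 29.2 CPM in single 39-week Natural oocytes (9.63 to 51.5 CPM). Shmt2 had its lowest mean in Natural PGC pools (35.9 ± 11.9 CPM, n = 4) and its highest in Natural cumulus cells (176 ± 39.9 CPM, n = 5), where the range of 115 to 210.2 CPM lay within that of 39-week Natural oocytes, 79.6 to 236 CPM. Slc6a9 had its highest means in oocytes, at 97.9 ± 24.3 CPM in 12-week Natural sets (n = 5) and 52.5 to 251 CPM in single 39-week Natural oocytes, although E18.5 Natural ovaries at 46.8 to 118 CPM overlapped these. In PGC pools it stood at 0 to 10.1 CPM.

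Levels of different genes were compared only after division by exon length, as CPM per kilobase of exon. On that scale the 4 proteins of the complex lay within a narrow band in Natural PGC pools, with Gcsh at 122, Amt at 67.0, Dld at 48.5 and Gldc at 25.6 CPM per kilobase. In Natural cumulus cells the same genes lay at 413, 1.98, 20.6 and 0.127 CPM per kilobase. Gldc was 20.9% of Gcsh per kilobase in Natural PGC pools and 0.0307% in Natural cumulus cells, and the ratio of Gcsh to Amt was 1.82 in the former and 209 in the latter. The ratio of the mitochondrial Shmt2 to the cytosolic Shmt1 was 0.262 in Natural PGC pools, 5.80 in E18.5 ovaries and 86.0 in cumulus cells. Ovary and low-input libraries were made with different kits, so tissue and kit cannot be told apart in these levels.

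**Figure D2:**
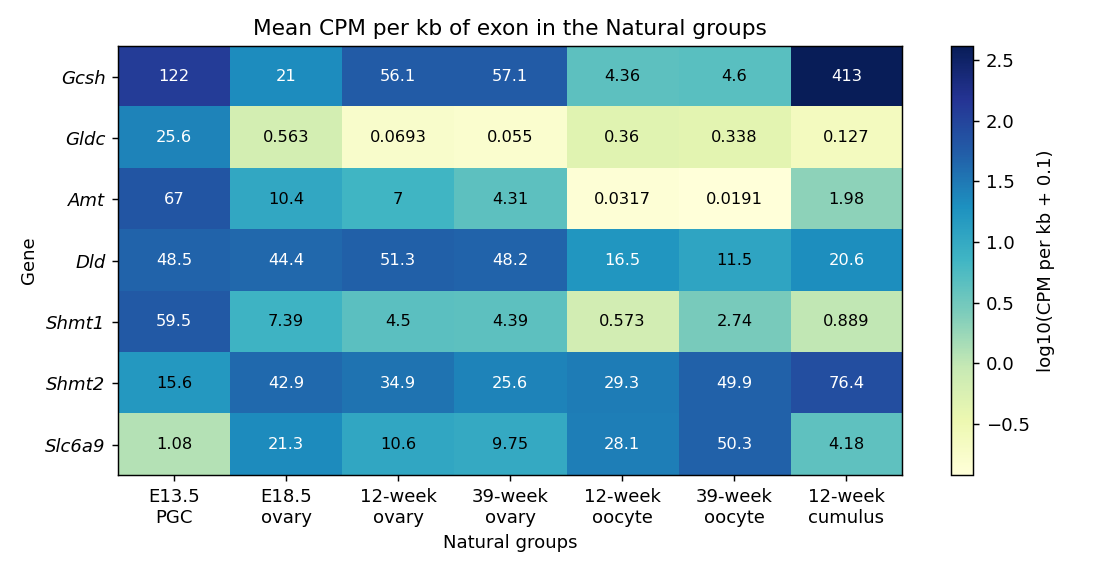
Map of the mean level of each of the 7 genes (rows) in the Natural group of each table (columns), in CPM per kilobase of exon, coloured on a log10 scale with the value printed in each cell. In PGC pools the genes of the complex stand between 25.6 (Gldc) and 122 (Gcsh), whereas in cumulus cells Gcsh stands at 413 and Gldc at 0.127.

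The contrast of 12-week Natural oocyte sets with Natural cumulus libraries asked where in the cumulus-oocyte complex each gene is expressed. Of the 7 genes, 5 passed the test, beside 86.6% of all 12867 genes tested, a count that does not stand above the background. Gcsh was lower in oocytes by a log2 difference of -5.71 ± 0.25 and Amt by -4.84 ± 0.75 (adjusted p = 3e-05), while Slc6a9 was higher by 3.63 ± 0.31. Oocyte sets and cumulus libraries did not overlap in any of these 3 genes. The share of all genes without overlap was not computed for this contrast, so nothing is read from that. Gldc was higher in oocytes by 2.33 ± 0.96 (adjusted p = 0.0354), a call that was lost with DESeq2's size factors (adjusted p = 0.0526), on total counts alone (0.168) and without Natural cumulus library 5 (0.0724). Shmt2 was lower in oocytes by -0.52 ± 0.21 (adjusted p = 0.0306), which was also lost without that library (log2 difference -0.34, adjusted p = 0.14), and Dld, at 0.54 ± 0.28 with adjusted p = 0.0907, passed without it (0.75, adjusted p = 0.0299). Shmt1 stood at 0.20 ± 0.38. Without that library Gcsh was at -5.69, Amt at -4.96, Slc6a9 at 3.86 and Shmt1 at 0.48. The median over all genes was 0.68 in this fit and -0.20 on total counts alone, where Dld (-0.32) and Shmt1 (-0.64) changed sign, so directions near these values depend on the scaling. Natural cumulus libraries 3 and 4 share the name fields of oocyte sets 35_3 and 92_5. The fit held no term for these fields, so its p-values take all samples as independent. Table and cell type cannot be told apart here.

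Genes around the complex were called in both directions in the same contrast, as were all genes tested, of which 6377 were higher and 4762 lower in oocytes. Of 23 genes of folate metabolism and serine synthesis tested, 9 were higher and 10 lower (median -0.22). The 3 calls with the smallest adjusted p were higher in oocytes, namely Fpgs (8.21 ± 0.44), which retains folates in cells as polyglutamates, Mtr (4.54 ± 0.25), methionine synthase, and Mthfd2 (4.32 ± 0.27), a mitochondrial folate dehydrogenase. Of 10 genes of glycine transport and use, 3 were higher and 4 lower (median -0.18), among them Slc25a38 (3.93 ± 0.24), a mitochondrial glycine carrier, and Gclm (3.30 ± 0.24) above and glutathione synthetase Gss (-5.08 ± 0.47) below. Of 18 genes for making and attaching lipoate, the cofactor of the H protein, 5 were higher and 10 lower (median -0.90), with Fdxr, ferredoxin reductase, at -5.82 ± 0.43, and the iron-sulfur cluster genes Lyrm4 and Nfs1 at 4.02 ± 0.43 and 2.81 ± 0.32. Of 11 genes of the other lipoyl-dependent dehydrogenase complexes, 6 were higher and 1 lower (median 0.47), with Pdhx (4.44 ± 0.29) and Ogdhl (10.53 ± 0.69) higher and Bckdha (-4.14 ± 0.43) lower. The shares called in these lists do not stand above the 86.6% of all genes. Without Natural cumulus library 5, 9 folate and serine genes were higher and 11 lower of 24, 5 and 5 of 12 glycine genes, 5 and 9 of 18 lipoate genes, and 6 and 1 of 11 dehydrogenase genes.

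In Natural ovaries Gcsh differed between the fetal and the adult libraries. From E18.5 to 12 weeks Gcsh rose by 1.41 ± 0.19 on the log2 scale (adjusted p = 0.00024), from 26.4 to 34.4 CPM in the 4 fetal libraries to 58.9 to 106 CPM in the 4 adult ones. In the same comparison Shmt1 fell by 0.72 ± 0.18 (adjusted p = 0.00739) and Slc6a9 fell by 1.00 ± 0.24 (adjusted p = 0.00611). Of 6 genes tested 3 were called, beside 50.5% of all genes, and Amt (-0.57, adjusted p = 0.0561), Shmt2 (-0.31, adjusted p = 0.125) and Dld (0.21) were not. From 12 to 39 weeks, where 28.2% of all genes were called, Amt fell by 0.56 ± 0.15 (adjusted p = 0.0171) and Shmt2 fell by 0.31 ± 0.11 (adjusted p = 0.0495), while Gcsh stood at 0.16 ± 0.20. Each age is a separate table, and age and table cannot be told apart. Marker sums of Natural ovaries also moved with age. From E18.5 to 12 weeks theca and luteal markers went from 17.8 to 48.5 CPM up to 10581 to 19041 CPM, granulosa and cumulus markers from 249 to 469 up to 1333 to 1866 CPM, and oviduct epithelium markers from 285 to 690.1 up to 3504 to 8075 CPM. Stroma markers went from 13465 to 21762 down to 3237 to 4963 CPM and fetal germ cell markers from 271 to 874 down to 58.6 to 92.3 CPM. At 39 weeks oviduct epithelium markers were at 62.4 to 233 CPM and fetal germ cell markers at 22.2 to 47.5 CPM, both below 12 weeks without overlap. The part of these lists in the Gcsh, Shmt1, Slc6a9, Amt and Shmt2 values was not tested.

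Between Natural ovaries of different ages the related genes were called about as often as, or less often than, all genes (50.5% and 28.2%), so nothing is read from their counts. Between E18.5 and 12 weeks, 8 of 18 lipoate genes rose and 0 fell (median 0.22, against -0.04 over all genes), led by Fdxr (3.89 ± 0.29), Nfs1 (0.82 ± 0.12) and Iscu (0.93 ± 0.18). Of 25 folate and serine genes 5 rose and 8 fell (median -0.01), with Phgdh, which starts serine synthesis, at -1.52 ± 0.15, Aldh1l1 at 2.82 ± 0.29 and Ggh at 1.35 ± 0.14. Of 17 glycine genes 4 rose and 5 fell (median -0.51), with the amino acid transporter Slc38a4 at -3.06 ± 0.18, Alas1, which starts heme synthesis from glycine, at 2.13 ± 0.13 and Gclc at 2.17 ± 0.16. Of 11 dehydrogenase genes 4 rose and 2 fell (median 0.35), with Ogdhl at -1.80 ± 0.25, Dbt at 1.30 ± 0.18 and Ogdh at 0.80 ± 0.12. From 12 to 39 weeks 3 folate and serine genes rose and 2 fell of 25, with Psat1 (-1.27 ± 0.25), Slc46a1 (0.55 ± 0.15) and Aldh1l1 (1.32 ± 0.38) named first by adjusted p. In that interval 2 of 16 glycine genes rose and 1 fell (Alas1 -1.03 ± 0.15, Alas2 2.70 ± 0.68, Slc36a4 0.35 ± 0.11), 1 of 18 lipoate genes rose and 1 fell (Fdxr 0.53 ± 0.12, Lipt2 -0.70 ± 0.19), and 1 of 11 dehydrogenase genes rose (Ogdh 0.48 ± 0.16).

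In cumulus cells Gcsh was the member on which the choice rested. The IVF libraries held 227, 256, 176, 290.0 and 276 CPM (245 ± 45.1, n = 5), against the Natural values of 653, 619.7, 661, 579 and 470.1 CPM. The lowest Natural library stood above the highest IVF library. The log2 fold change was -1.35 ± 0.16 with the naming set of the libraries as a covariate, -1.43 ± 0.24 among libraries with numbered names, -1.25 ± 0.13 among those with word names, and -1.37 ± 0.17 without Natural library 5. Over all genes 0.00903% were called in this fit and 0.469% did not overlap between the groups, and nothing is read from either since the gene was picked on this contrast. Granulosa and cumulus markers summed to 1406 to 2464 CPM in Natural and 2222 to 2701 CPM in IVF libraries, and theca and luteal markers to 16224 to 25036 and 9430 to 29386 CPM. The part of these markers in the Gcsh values was not tested, and in bulk samples fewer cells of a type and less RNA per cell cannot be told apart.

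In cumulus cells the other members overlapped between the groups. Gcsh was picked for its fall in this contrast, so its difference from them is not read as a result. Shmt2 stood at 203, 195, 115, 157 and 210.2 CPM in Natural and 187, 170.5, 129.8, 144 and 121 CPM in IVF libraries (log2 fold change -0.29 ± 0.20), and the groups overlapped. Among the libraries with word names it was -0.67 ± 0.16 and among those with numbered names -0.05 ± 0.27. Dld ran from 28.1 to 71.2 CPM in Natural and 25.5 to 64.4 CPM in IVF libraries (-0.38 ± 0.19), Amt from 1.79 to 8.69 and 1.71 to 7.56 CPM (-0.03 ± 0.41), Shmt1 from 1.72 to 3.72 and 0.324 to 4.88 CPM (-0.24 ± 0.58), and Slc6a9 from 6.69 to 21.3 and 11.7 to 18.0 CPM (0.16 ± 0.28). Without Natural library 5 the fold changes were -0.13 for Shmt2, -0.31 for Dld, -0.06 for Amt, -0.12 for Shmt1 and 0.31 for Slc6a9. The ratio of Gcsh to Dld per kilobase, both present in every library, was 20.1 in Natural and 10.6 in IVF cumulus cells. This ratio holds the Gcsh values on which the gene was picked, so nothing is read from it. None of the related genes tested passed (22 folate and serine genes, 11 glycine genes, 18 lipoate genes, 9 dehydrogenase genes), beside 0.00903% of all genes. Their list medians were 0.01, -0.23, -0.04 and 0.09 against 0.004 over all genes. None passed without Natural library 5, beside 5 of 10918 genes. With so few calls over all genes, nothing is read from these counts.

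**Figure D3:**
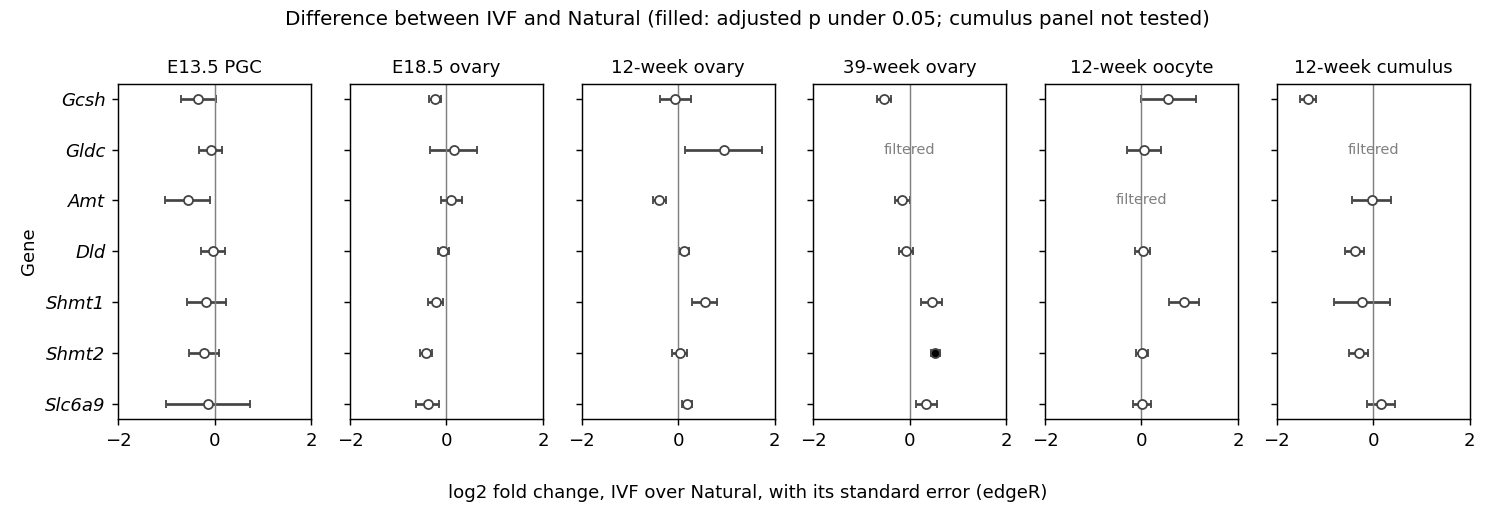
Log2 fold change (IVF over Natural) of each gene in PGC pools, ovaries of 3 ages, 12-week oocyte sets and cumulus cells, with bars of 1 standard error, filled where the adjusted p was under 0.05; genes too low to be tested are marked as filtered. Gcsh in cumulus cells (-1.35) is the value on which the gene was picked and was not tested, and Shmt2 in 39-week ovaries (0.53) is the one filled point.

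Whole ovaries gave tests outside the cumulus contrast on which Gcsh was picked, although the members were chosen with earlier results of these data known. In 39-week ovaries Gcsh was 105, 77.0, 70.1, 97.1 and 63.0 CPM in Natural and 55.8, 63.9, 65.1, 55.0 and 45.8 CPM in IVF libraries. Only the lowest Natural library fell within the IVF range. The log2 fold change was -0.53 ± 0.15 with an adjusted p of 0.115 (unadjusted p = 0.00431), and DESeq2 gave -0.53 with an adjusted p of 0.0343, where it called 3.92% of all genes. The edgeR test called 0.262% of genes at this age, and 3303 of 17186 genes had an unadjusted p under 0.05. Theca and luteal markers summed to 17857 to 26710 CPM in Natural and 9311 to 20346 CPM in IVF libraries, and granulosa and cumulus markers to 684 to 1703 and 1139 to 3671 CPM, and the part of either in the Gcsh value was not tested.

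Shmt2 passed the edgeR test in 39-week ovaries and in no other comparison of IVF with Natural. It was 51.4, 66.0, 59.0, 67.3 and 51.5 CPM in Natural and 89.8, 83.9, 88.9, 78.4 and 84.0 CPM in IVF libraries. All 5 IVF libraries lay above all 5 Natural ones, beside 5.16% of all genes tested whose groups did not overlap. The log2 fold change was 0.53 ± 0.09 (adjusted p = 0.0408), and DESeq2 gave 0.53 (adjusted p = 2.29e-05). The call was close to the threshold: it was lost with all genes of at least 1 count tested (adjusted p = 0.0568) and in 9 of 10 fits that left out 1 library (0.0536 to 0.111), each time with the fold change between 0.49 and 0.56. It held without IVF library 1 (adjusted p = 0.0405), in which oviduct epithelium markers summed to 8788 CPM against at most 233 CPM in the other libraries. Fetal germ cell markers summed to 22.2 to 47.5 CPM in Natural and 42.6 to 144 CPM in IVF libraries, and the part of these and of the theca and granulosa sums above in the Shmt2 value was not tested.

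The remaining genes did not pass at 39 weeks. Shmt1 stood at 0.45 ± 0.22 (adjusted p = 0.278), with 9.65 to 16.0 CPM in Natural and 10.7 to 25.7 CPM in IVF libraries, and Slc6a9 at 0.35 ± 0.21, Amt at -0.15 ± 0.15 and Dld at -0.08 ± 0.14. The Dld range in IVF libraries, 73.5 to 138 CPM, owed its lower end to IVF library 1. Of the related genes 1 of 25 folate and serine genes was called, beside 0.262% of all genes. It was Atic (0.52 ± 0.08, adjusted p = 0.0303), which completes purine synthesis with a folate-borne carbon. No gene at all was called without Natural library 5, so the Atic call was lost there. The folate and serine list had a median of 0.21 against 0.03 over all genes. None of 17 glycine, 18 lipoate or 11 dehydrogenase genes was called.

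At 12 weeks Gcsh did not separate the ovaries, at 91.8, 106, 58.9 and 66.8 CPM in Natural and 112, 46.8, 118, 53.9 and 56.9 CPM in IVF libraries (-0.06 ± 0.32). Both groups held high and low libraries. Amt was 16.6, 14.9, 13.3 and 13.5 CPM in Natural and 10.5, 13.0, 9.76, 12.0 and 11.0 CPM in IVF libraries, so every IVF library was lower, and its log2 fold change was -0.39 ± 0.14 (adjusted p = 0.256, unadjusted p = 0.0187). Shmt1 was 13.3, 11.9, 12.7 and 13.6 CPM in Natural and 14.5, 15.5, 15.1, 36.6 and 15.9 CPM in IVF libraries, so every IVF library was higher (0.55 ± 0.26, adjusted p = 0.371). Without the IVF library at 36.6 CPM the fold change was 0.24 ± 0.12 (adjusted p = 0.412). Over all genes 5.69% did not overlap between these groups. That library was also the shallowest ovary library, with 2839022 counts. By edgeR 0 of the 7 genes were called, beside 0.00567% of all genes, and 1, Amt, passed at an unadjusted p of 0.05, beside 14.4%. DESeq2 called 0 of them, beside 2.29% of all genes, with Amt at an adjusted p of 0.0726. Oviduct epithelium markers summed to 3504 to 8075 CPM in Natural and 93.7 to 3271 CPM in IVF libraries, also without overlap, and their part in the Amt and Shmt1 values was not tested. Gldc (0.95 ± 0.79), Slc6a9 (0.19 ± 0.11), Dld (0.12 ± 0.10) and Shmt2 (0.03 ± 0.16) overlapped between the groups, and 0 of 25, 17, 18 and 11 related genes passed.

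In E18.5 ovaries the Gcsh values were 32.1, 34.4, 28.4 and 26.4 CPM in Natural and 25.1, 28.0, 30.4, 23.5, 25.7 and 25.4 CPM in IVF libraries, with overlap and a log2 fold change of -0.24 ± 0.12 (adjusted p = 0.239). Shmt2 was 85.2, 103, 119 and 87.9 CPM in Natural and 89.1, 70.2, 81.0, 67.2, 77.6 and 70.0 CPM in IVF libraries, where 5 of 6 IVF libraries lay below every Natural one. Its log2 fold change was -0.43 ± 0.13 (adjusted p = 0.0649, unadjusted p = 0.00484), and DESeq2 gave -0.44 with an adjusted p of 0.0300. None of the 7 genes passed by edgeR, beside 5.43% of all genes, 1 passed at an unadjusted p of 0.05, beside 24.1%, and 1, Shmt2, passed by DESeq2, beside 6.71%. None was without overlap, beside 8.27% of all genes. The others stood at -0.39 ± 0.24 (Slc6a9), -0.23 ± 0.15 (Shmt1), 0.15 ± 0.49 (Gldc), 0.11 ± 0.21 (Amt) and -0.06 ± 0.11 (Dld). Erythroid markers summed to 589 to 1599 CPM in Natural and 1657 to 4649 CPM in IVF libraries, and oocyte markers to 134.6 to 477 and 9.4 to 128 CPM, each without overlap, and their part in the Shmt2 value was not tested.

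Among related genes at E18.5, Mtr was higher in IVF (0.82 ± 0.12, adjusted p = 0.0122) and Phgdh lower (-0.54 ± 0.12, adjusted p = 0.0256), the 2 calls of 26 folate and serine genes, beside 5.43% of all genes, and the list had a median of -0.04. Alas2, the erythroid enzyme that condenses glycine in heme synthesis and one of the erythroid markers above, was the one call of 16 glycine genes (1.87 ± 0.33, adjusted p = 0.0129). None of 18 lipoate genes and none of 11 dehydrogenase genes passed.

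**Figure D4:**
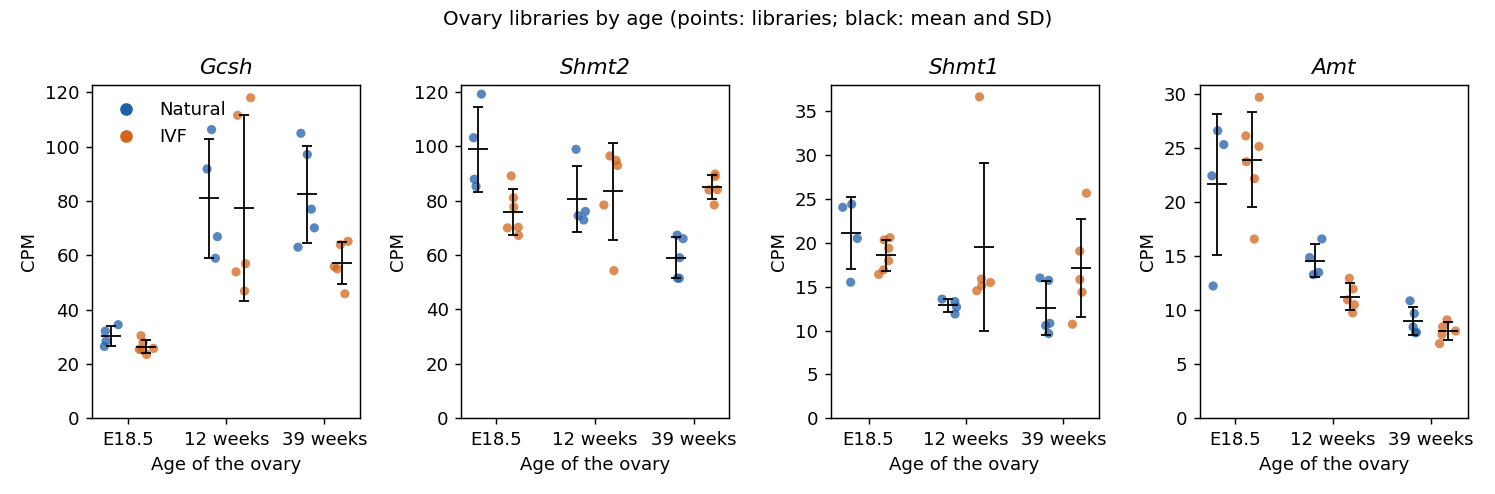
Gcsh, Shmt2, Shmt1 and Amt in each ovary library (CPM) by age of the ovary, Natural beside IVF, with the mean and SD of each group in black. Shmt2 in IVF lies mostly below Natural in fetal ovaries (67.2 to 89.1 against 85.2 to 119 CPM) and wholly above it in 39-week ovaries (78.4 to 89.8 against 51.4 to 67.3 CPM).

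Whether the IVF effect of a gene differed between ages was tested by interaction terms. Between 12 and 39 weeks 0 of the tested genes passed, beside 0.0157% of all genes, and at an unadjusted p of 0.05 there was 1, Shmt2 (0.50 ± 0.17, adjusted p = 0.143), beside 20.1% of all genes. Between E18.5 and 12 weeks 0 passed, beside 0.00557%, and 2 did at an unadjusted p of 0.05, Shmt1 (0.76 ± 0.29) and Shmt2 (0.46 ± 0.20), beside 16% of all genes. DESeq2 was not run on these terms, and the opposite signs of the Shmt2 fold change at E18.5 and 39 weeks were not tested against each other. No related gene passed an interaction term.

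PGC pools, in each of which every gene of the complex stood at 45.8 CPM or more, showed no call in either direction. Gcsh was 176, 82.5, 264 and 182 CPM in Natural and 112, 131, 163, 190.5 and 139 CPM in IVF pools, the IVF values lying inside the Natural range (-0.34 ± 0.36). Gldc held 75.8, 80.8, 98.2 and 131 CPM in Natural against 60.6, 104, 123, 93.3 and 87.6 CPM in IVF pools (-0.08 ± 0.23). Natural pool 2 was the lowest of all 9 pools in Gcsh, Amt, Shmt1 and Shmt2, while its Gldc and Dld were not the lowest. The fold changes were -0.56 ± 0.46 for Amt, -0.03 ± 0.24 for Dld, -0.17 ± 0.41 for Shmt1, -0.22 ± 0.30 for Shmt2 and -0.13 ± 0.87 for Slc6a9. By edgeR 0 of 7 passed, beside 0% of all genes, and 0 at an unadjusted p of 0.05, beside 2.73%. DESeq2 also called 0, beside 0% of all genes, and 0 of the 7 were without overlap, beside 0.642%. The 22 folate and serine, 13 glycine, 18 lipoate and 11 dehydrogenase genes gave 0 calls, with medians of -0.14, -0.02, -0.14 and 0.06 against -0.04 over all genes.

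In 12-week oocytes the IVF donor sets were spread more widely in Gcsh than the Natural ones. The 5 IVF sets held 1.38, 9.91, 27.6, 12.0 and 2.35 CPM (10.7 ± 10.5), against 5.21 to 8.79 CPM in the 5 Natural sets. The IVF sets therefore lay on both sides of the Natural range, and the log2 fold change of 0.56 ± 0.57 (adjusted p = 0.909) became -0.08 without IVF set 126_4, the one at 27.6 CPM. Shmt1 held 1.22, 1.87, 1.83, 1.51 and 1.74 CPM in Natural and 2.57, 2.72, 6.08, 3.93 and 1.63 CPM in IVF sets, with 4 of 5 IVF sets above every Natural one (0.88 ± 0.32, adjusted p = 0.699, unadjusted p = 0.0151). The others were at 0.05 ± 0.35 (Gldc), 0.02 ± 0.15 (Dld), 0.01 ± 0.12 (Shmt2) and 0.02 ± 0.19 (Slc6a9), all overlapping. Amt, with 18 counts over 40 IVF oocytes, was too low to be tested. By edgeR 0 of 6 genes passed, beside 0.0277% of all genes, 1 did at an unadjusted p of 0.05, beside 6.67%, and DESeq2 called 0, beside 0.19%. None was without overlap, beside 1.79% of all genes. Of the related genes 1 of 11 dehydrogenase genes passed, Dbt, the lipoyl-bearing core of the branched-chain complex (3.66 ± 0.52, adjusted p = 0.0402), and 0 of 21 folate and serine, 12 glycine and 18 lipoate genes did.

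Single oocytes gave the values behind these sums. Gcsh was at a median of 0.960 CPM in Natural oocytes (0 to 35.9 CPM, 25 of 36 with a count) and 1.64 CPM in IVF oocytes (0 to 336 CPM, 27 of 40 with a count). The 4 highest were IVF oocytes, number 26 of set 127_2 at 336 CPM and numbers 23, 19 and 22 of set 126_4 at 128, 109 and 72.7 CPM, singled out after their values were seen. The same 4 oocytes held Shmt1 at 40.2, 16.1, 25.3 and 24.2 CPM, against a median of 2.61 CPM over IVF oocytes, and Slc6a9 at 258, 195, 176 and 197 CPM. They were among the shallowest libraries, at 969774 to 1737362 counts, ranks 2 to 5 from the lowest of 76. Their oocyte markers summed to 4882 to 8181 CPM and their granulosa and cumulus markers to 10.4 to 30.3 CPM, within ranges of 4882 to 35932 and 10.4 to 455 CPM over IVF oocytes, so both sums were at the low end there. Natural oocytes also reached low sums of oocyte markers, down to 1764 CPM, with Gcsh at 2.80 CPM in that oocyte. Over all 76 oocytes the correlation of log2 Gcsh with the sum of cumulus markers was r = 0.33 (Spearman's rho = 0.41). This is a description over cells that may share donors and that differ in depth.

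**Figure D5:**
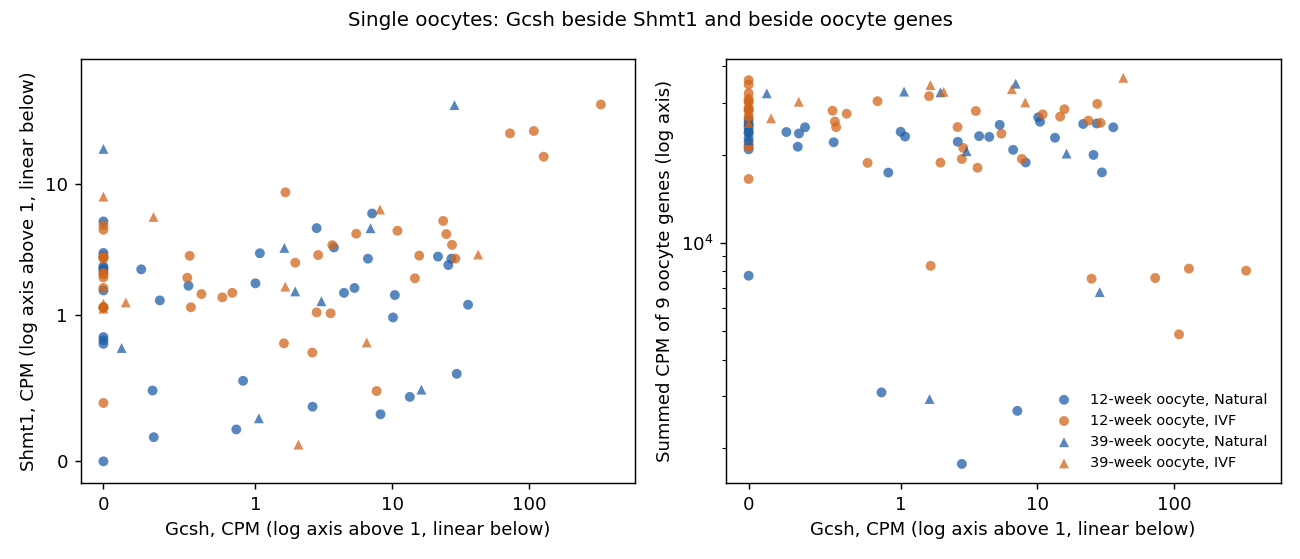
Each point is 1 oocyte, with Gcsh (CPM) on the horizontal axes against Shmt1 (CPM) at left and the sum of 9 oocyte markers (CPM) at right, coloured by conception and shaped by age. The 4 IVF oocytes of highest Gcsh (72.7 to 336 CPM) have Shmt1 of 16.1 to 40.2 CPM and oocyte markers of 4882 to 8181 CPM.

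The names of the 39-week oocytes hold no set fields and their donors are not named. Each group therefore counted as 1 sample and no test was made. Counts summed over the 9 Natural and 10 IVF oocytes gave Gcsh at 7.31 and 5.52 CPM, a log2 ratio of -0.41 (95% interval -0.54 to -0.27, which covers counting error only). The direction depended on how the oocytes were combined and on single oocytes. The log2 ratio was -0.11 from mean CPM, -0.98 from medians and 0.13 with TMM factors, and it was 0.90 without Natural oocyte 9, which held 525 of the 789 Natural counts, and -2.39 without IVF oocyte 10, which held 763 of the 988 IVF counts. Gldc was at 1.07 and 0.402 CPM (-1.42, interval -1.86 to -0.98), Shmt1 at 9.05 and 2.98 CPM (-1.61, interval -1.76 to -1.45) and Amt at 5 and 27 counts (1.70, interval 0.30 to 3.44). These 3 of 7 genes were past a log2 ratio of 1, beside 48.6% of all genes with enough counts, a share that the members do not stand above. Shmt1 was at -0.07 when medians over oocytes were compared and at 0.12 without Natural oocyte 9. The Amt counts of IVF oocytes came from oocyte 7 (23 of 27), without which the ratio was -1.03 on 5 and 4 counts, so no direction is read for either gene. Gldc was at -0.69 without Natural oocyte 5. Shmt2 (122 and 117 CPM), Slc6a9 (178 and 188 CPM) and Dld (27.2 and 30.4 CPM) had log2 ratios of -0.06, 0.07 and 0.16, and each changed sign when some single oocyte was left out.

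The genes whose levels followed Gcsh most closely were sought over the 14 group means of log2 CPM, among 13872 genes of at least 1 CPM in at least 7 groups. They were Fam136a (r = 0.981), Pgam1 (0.976), Chchd10 (0.974), Skil (0.973) and Echdc2 (0.973). Their means fell from 299 to 940.3 CPM in Natural cumulus cells to 4.81 to 5.95 CPM in 12-week Natural oocytes. Between the cumulus groups Echdc2 went from 629 CPM in Natural to 258 CPM in IVF, while Fam136a stood at 609 and 645 CPM, Pgam1 at 299 and 266 CPM, Chchd10 at 940.3 and 1143 CPM and Skil at 605 and 539 CPM. Among the members the correlation with Gcsh was 0.74 for Amt, 0.55 for Dld, 0.48 for Shmt1, 0.22 for Gldc, -0.09 for Shmt2 and -0.79 for Slc6a9. These points share libraries and kits and are given as a description. The 14 means include the cumulus groups on which Gcsh was picked, so nothing is read from the cumulus values of these genes.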

How the data were processed

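RNA-seq counts of 143 of 151 samples in 7 tables were analysed. The deposited values are raw read counts per gene made by the authors; the submitters' processing notes name Trimmomatic 0.32, STAR 2.3.0e, featureCounts 1.5.0, DESeq2 and mm10. Strand and the handling of multi-mapped reads are not given in the sources used here. Ovary libraries used a KAPA Stranded mRNA kit, and other libraries a modified SMART-seq and Nextera protocol. The 4 samples of 39-week cumulus cells were not analysed here, 4 further records of cumulus libraries carry no columns of their own, and no libraries were identical.

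Tests used edgeR 4.0.16 (TMM, filterByExpr, quasi-likelihood, two-sided, Benjamini-Hochberg) in R 4.3.3, tested on simulated data, with DESeq2 1.42.0 and limma 3.58.1 as alternatives. Cumulus fits held the library naming set, numbers or words. Intervals for the 39-week oocyte ratios come from exact binomial intervals of the IVF share of the summed counts and cover counting error only. Members and related lists were chosen with earlier results of these data known. Named related genes are at most 3 called genes per list and comparison with the smallest adjusted p. Exon lengths are from GENCODE transcripts with RefSeq matches. Deviations from group means of libraries sharing a replicate number did not correlate above 0.1 in every pair of any table (-0.36 to 0.54), so the numbers were not taken as pairs.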

Additional observations from a re-analysis of the deposited data

Results flagged for a closer look

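Of 92 groups of 4 to 10 samples tested for a lone extreme sample by Dixon's criterion at 95%, 9 were marked, where chance marks about 1 in 20. In 12-week ovaries Shmt1 in IVF library 4 was 36.6 CPM against 15.9 CPM in the next highest library, and Shmt2 in Natural library 1 was 98.8 CPM against 76.0 CPM. In cumulus cells Slc6a9 in IVF library 2 was lowest at 11.7 CPM, with 16.2 CPM next.

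The others were single 39-week oocytes. Natural oocyte 9 had the highest Shmt1, 39.8 CPM against 18.46 CPM in the next, and the highest Shmt2, 236 CPM against 157 CPM, and its oocyte markers summed to 6801 CPM. Natural oocyte 5 had Gldc at 5.65 CPM against 1.89 CPM. IVF oocyte 10 had Gcsh at 42.6 CPM against 8.15 CPM. Amt was highest in IVF oocyte 7 at 8.15 CPM against 0.220 CPM, and in Natural oocyte 3 at 0.240 CPM against 0.118 CPM, the latter a level of few counts.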

How the results depend on the processing

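Leaving out 1 library or donor set at a time turned the sign of fold changes that were small beside their errors. The ranges were -0.076 to 0.84 for Gcsh, -0.15 to 0.24 for Gldc, -0.057 to 0.13 for Dld, -0.029 to 0.065 for Shmt2 and -0.10 to 0.14 for Slc6a9 in 12-week oocytes; -0.26 to 0.084 for Gcsh and -0.040 to 0.12 for Shmt2 in 12-week ovaries; and -0.13 to 0.039 for Dld in 39-week ovaries. In PGC pools they were -0.25 to 0.067 for Gldc, -0.20 to 0.23 for Dld, -0.49 to 0.023 for Shmt1 and -0.51 to 0.71 for Slc6a9, at E18.5 -0.18 to 0.72 for Gldc and -0.089 to 0.21 for Amt, and in cumulus cells -0.23 to 0.16 for Amt, -0.51 to 0.11 for Shmt1 and -0.055 to 0.32 for Slc6a9. In 39-week oocytes, leaving out 1 oocyte at a time (added after seeing the data) gave -2.39 to 0.90 for Gcsh, -1.03 to 2.26 for Amt, -2.24 to 0.12 for Shmt1, -0.17 to 0.24 for Shmt2, -0.018 to 0.30 for Dld and -0.052 to 0.29 for Slc6a9, with 2 to 4 genes past a log2 ratio of 1. With other settings, 12-week oocyte values turned to -0.0022 (DESeq2), -0.00084 (DESeq2's size factors) and -0.051 (sums by the first field of the name) for Dld, to -0.0073 (DESeq2), -0.0032 (no filter) and -0.0070 (size factors) for Shmt2, and to -0.0035, -0.0036 and -0.0025 for Slc6a9 in the same 3 settings. Shmt2 in 12-week ovaries turned to -0.0071 without the filter. On total counts alone, Dld and Shmt1 turned to -0.32 and -0.64 between oocytes and cumulus cells, and Dld, Shmt1 and Slc6a9 to -0.088, -0.035 and -0.11 between 39 and 12 weeks, where size factors gave -0.0092 for Slc6a9. In cumulus cells other settings gave -1.28 to 0.39 for Shmt1 and -0.11 to 0.54 for Slc6a9, and in 39-week oocytes Gcsh turned to 0.13 with TMM factors and Shmt2 to 0.0024 to 0.32 with means or medians. The cause was not tested.

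The count of genes called in 39-week ovaries, 1, became 2 with DESeq2 and 0 without the filter, and 0 to 1 when 1 library was left out. At E18.5 the count of 0 became 1 with DESeq2, and 0 to 1 when 1 library was left out, Shmt2 passing without Natural library 1 (-0.49, adjusted p = 0.0307). In cumulus cells Shmt1 went past a log2 fold change of 1 among libraries with word names (-1.28). It rested there on 10 and 13 counts in Natural and 2 and 11 counts in IVF libraries, so nothing is read from it. In 39-week oocytes the genes past a log2 ratio of 1 went from 3 to 1 with medians. Over all genes, DESeq2 called 1870 in E18.5 ovaries against 891 by edgeR, 1091 against 45 in 39-week ovaries, 646 against 1 in 12-week ovaries, 55 against 4 in 12-week oocytes and 27 against 1 in cumulus cells.

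The replicate numbers were not taken as pairs, but the check of their correlations cannot exclude pairing. With the replicate block, 0 of the genes were called in 39-week ovaries (Shmt2 adjusted p = 0.0792), Shmt1 and Slc6a9 in PGC pools turned to 0.039 and 0.39, and over all genes 3 were called in E18.5 ovaries, 0 and 26 in 12- and 39-week ovaries, 2 in PGC pools and 26 in cumulus cells. Not every sample of a table correlated above 0.1 with its own number. Gldc in cumulus cells and Amt in oocytes had no count in most libraries, which limits what can be read from them at this depth.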
